A study of Mus musculus with 26 samples.

Results

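Primary mouse hepatocytes were set against mouse embryonic stem cells (ESC) across a panel of microRNA (miRNA) assays, using 9 of the series' 26 samples and all 315 assay positions. The members were taken by sample name, 3 hepatocyte samples, 3 samples of ESC line D3 and 3 of ESC line R1, and no measured value entered the choice. Hepatocytes came from adult C57BL/6 mice and no treatment after their isolation is given. Both ESC lines were untreated and were kept with leukemia inhibitory factor (LIF) and serum replacement on feeder cells, embryonic fibroblasts inactivated with mitomycin-C. Whether the feeder cells were removed before RNA extraction is not stated. The labels give no number, sex or exact age of the animals and no strain of origin for the ESC lines. Nor do they say whether the samples of a group were separate animals or cultures, and the spread on which p-values rest may therefore be technical. The rest of the series, used here only to place single assays, comprised tail-tip fibroblasts, induced pluripotent stem cells (iPSC), activin-treated iPSC and pancreatic islets.

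MiRNAs are short RNAs that guide Argonaute proteins to messenger RNAs and lower their output. Mouse ESC are known for a cluster of miRNAs that is transcribed as a unit, is silenced on differentiation and promotes rapid cell cycling, whereas the miRNA pool of the adult liver is known for a liver-specific miRNA that makes up much of the total and acts in lipid metabolism. Families that hold back pluripotency programs are generally low in ESC and accumulate in mature tissue. Levels were read by RT-qPCR with stem-loop primers, hairpins that prime cDNA synthesis from the processed miRNA, followed by amplification with a TaqMan probe. The value is the threshold cycle (Ct), and each cycle less stands for about a doubling of the RNA. The assays carry plate positions (A, B, C or D and a number) and no miRNA names, so that no assay below is given a miRNA, a role or a sequence, and the cell type labels were not checked against named markers.

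Fewer assays were detected in hepatocytes than in ESC. A Ct below 35, taken here as detection, was reached by 219, 217 and 210 assays in the hepatocyte samples, against 264, 264 and 258 in D3 and 257, 241 and 270 in R1. The groups did not overlap, and the means were 215.3 ± 4.73 in hepatocytes (SD, n = 3) and 259 ± 10.0 in ESC (SD, n = 6), a difference of -43.7 (two-sided exact permutation test, p = 0.0119, the smallest that 84 splits allow). At a stricter limit of Ct 32 the means were 155.3 assays in hepatocytes and 212 in ESC, again with p = 0.0119 in the exact permutation test. Among abundant assays the order was not the same. Hepatocytes had 51 ± 4.36 assays below Ct 25 and ESC 40.3 ± 8.94 (SD, n = 3 and 6), a difference that did not pass (exact permutation p = 0.107). These counts include the isolated early values described below, 19 in hepatocytes and 3 in ESC, all of them below Ct 25 but that of A42. The counts were not repeated without them, so the order among abundant assays may rest on them in part.

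The levels below are relative: log2 relative expression is the mean Ct of reference assays in a sample minus the Ct of the assay, so a higher value means more RNA. The reference assays were those that each of the 26 samples detected, and they were averaged separately for plates A and B (87 assays), plate C (26) and plate D (9). Their raw Ct moved in opposite directions. In plates A and B it was 25.5, 26.9 and 26.9 in hepatocytes and between 26.99 and 28.5 in ESC, a difference of -1.14 cycles (exact permutation p = 0.0357), which was -0.80 (exact permutation p = 0.0595) without the early values described below. In plate C it was higher in hepatocytes by 1.83 cycles (exact permutation p = 0.0238), by 1.48 without hepatocyte replicate 3 (exact permutation p = 0.107) and by 2.28 without the early values (exact permutation p = 0.0119). In plate D it was higher by 2.40 cycles (exact permutation p = 0.0119), and by 1.59 without the early values (exact permutation p = 0.0238). The plate D change came from reference assays D08 and D24, which were dropped for early values in fibroblast samples, not in hepatocytes or ESC. A fold change on plates C and D therefore contains a correction of the other sign from that on plates A and B.

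**Figure D1:**
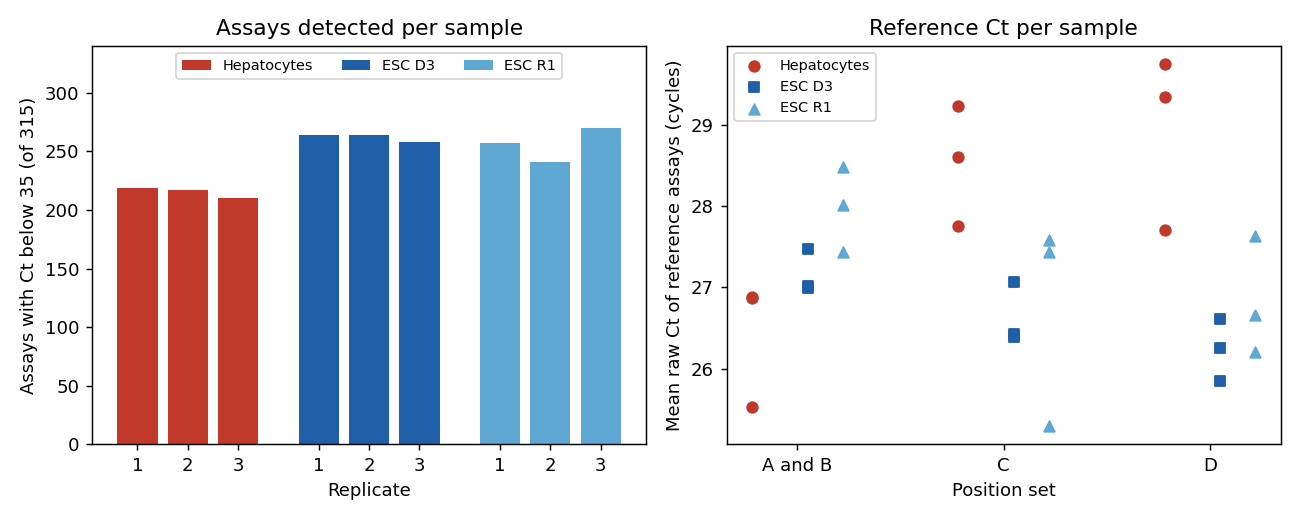
Left, the count of assays, among 315, that each sample detected at a Ct below 35, with hepatocytes at 210 to 219 and ESC at 241 to 270. Right, the mean raw Ct (cycles) of the reference assays per sample and plate set, where hepatocytes lie below ESC for plates A and B and above ESC for plates C and D.

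Hepatocyte samples also held single Ct values far earlier than the rest of their group. A value was counted as isolated when it lay over 8 cycles below every other sample of its cell type, with a missing Ct counted as 40, a rule chosen after the data had been seen. There were 19 in hepatocytes, 10 of them in replicate 1, 5 in replicate 2 and 4 in replicate 3, against 3 in ESC, all in R1 replicate 1. In hepatocyte replicate 1, 9 of the 10 lay on plate A and 6 belonged to reference assays. Assay A64 read 3.74, 26.7 and 26.3 in the 3 hepatocyte samples, A75 read 6.66, 20.1 and 20.6, and A34 read 10.4, 32.6 and 32.8. Across the tested assays, log2 relative expression correlated between hepatocyte samples with Pearson r of 0.626 to 0.796. Between ESC samples r was 0.801 to 0.933, and between a hepatocyte and an ESC sample it was 0.248 to 0.448. Without the early values these ranges were 0.923 to 0.958, 0.799 to 0.932 and 0.288 to 0.494, in the same order. The rule takes out values that disagree with the rest of their cell type. A higher r between hepatocyte samples therefore follows from the rule, and nothing further is read from it. These r are descriptions across assays, which share a sample's reference and input and are not independent replicates. The origin of the early values was not tested. The counts of calls against each cell type and the reference Ct differences are given with and without them. So are the folds of the assays named below that held such a value, apart from A75. The other samples of the series held 20 more, so that 42 values were left out in all. A reference assay with an early value in any of the 26 samples was then dropped. This left 79 reference assays for plates A and B, 25 for plate C and 7 for plate D.

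**Figure D2:**
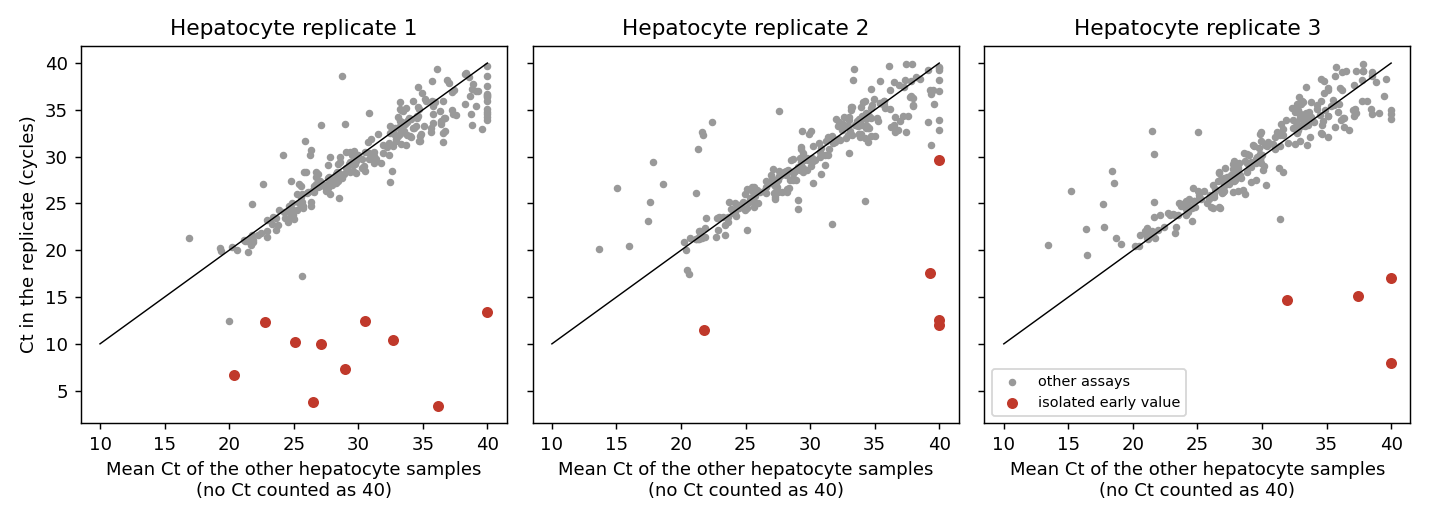
Ct of each assay in a hepatocyte replicate (cycles) against the mean Ct of the other hepatocyte samples, with a missing Ct counted as 40 in that mean and assays without a Ct in the replicate left out. The line marks equal values, and the red points are the isolated early values, 10 in replicate 1, 5 in replicate 2 and 4 in replicate 3.

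Hepatocytes and ESC differed over most of the panel, and more assays were lower in hepatocytes than higher. An assay could enter the test through detection in 1 group alone. With the other group set to 35, its direction was then all but fixed, and more assays were detected in ESC. The study's own design set hepatocytes beside islets and used ESC as a standard for reprogrammed cells, so the direct comparison joins 2 of its arms. Of 279 assays tested, 163 passed an adjusted p of 0.05 (58.4%), 61 of them higher (21.9%) and 102 lower (36.6%) in hepatocytes, by limma with Benjamini-Hochberg adjustment, and 177 had an unadjusted p under 0.05. Differences were large. Of the 61 higher assays, 31 differed by over 16-fold and 25 by 4- to 16-fold, with a median log2 fold change of 4.0. Of the 102 lower assays, 58 differed by over 16-fold and 41 by 4- to 16-fold, with a median of -4.38. The median over all 279 assays was -0.83, and it was -1.37, -0.79 and -0.53 for the hepatocyte samples taken singly. It moved with the setting, to 0.028 with quantile normalization, -0.26 with values above 35 left missing and -0.051 for assays below 35 in all 9 samples. In 155 tested assays (55.6%) the groups did not overlap, 55 of them (19.7%) with hepatocytes above and 100 (35.8%) with hepatocytes below.

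Many called assays were measured on both sides. A Ct below 35 in all 9 samples was found for 152 assays, of which 41 were called higher, 48 lower and 63 were not called. The directions were thus closer to even among these than over all tested assays. When the isolated values were left out, 171 assays were called, 68 higher and 103 lower, of which 54 of the 61 and 95 of the 102 had been called before. Under 6 references, among them raw Ct and quantile normalization, 43 assays were called higher each time and 62 lower each time. When the omission of each of the 9 samples in turn and of the isolated values was added to these references, 35 remained higher, with a median log2 fold change of 4.62, and 61 remained lower, with a median of -5.53. The plates differed in how far the counts moved with the reference. On plate C, 12 assays were called higher and 30 lower, against 4 and 44 with a reference taken over all plates, and on plate D 8 higher and 2 lower became 1 and 5. With that reference, 20 higher and 30 lower on plate A became 24 and 22, and 21 and 40 on plate B became 26 and 32. The excess of lower calls was thus not kept on plate A and was largest on plate C.

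**Figure D3:**
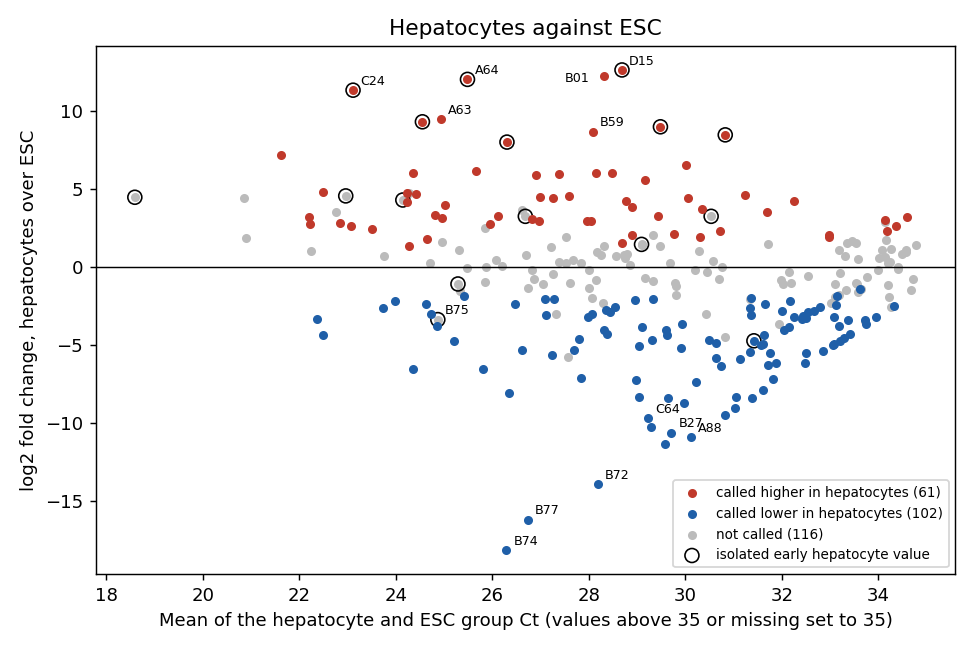
Log2 fold change of hepatocytes over ESC for the 279 tested assays against the mean of the group Ct values (cycles, values above 35 or missing set to 35). Red points are the 61 assays called higher, blue points the 102 called lower and grey points the 116 not called, and black rings mark assays with an isolated early hepatocyte value, which include D15, A64 and C24 among the highest.

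The largest falls in hepatocytes lay in a run of neighbouring positions, B71 to B77, which earlier work on these data had already singled out. Of the 12 assays with the largest falls, 6 belonged to this run. Because the run was singled out in these same data, nothing further is read from that share or from its detection in ESC and iPSC. B74 had Ct values of 34.4, no Ct and 35.1 in hepatocytes, against 17.2, 15.95 and 16.6 in D3 and 20.6, 19.3 and 16.97 in R1. Hepatocytes were thus at the detection limit where every ESC sample was at high abundance. By limma, the fall was -18.18 in log2 fold change (SE 0.92, adjusted p 2.80e-12). B77 read no Ct, 32.8 and no Ct in hepatocytes, against 18.6, 19.2 and 19.1 in D3 and 20.97, 19.9 and 17.4 in R1, a log2 fold change of -16.22 (SE 0.99, adjusted p 3.29e-11). B72 read 38.2, 33.8 and no Ct in hepatocytes and between 20.97 and 23.2 in ESC (-13.94, SE 0.95). Since hepatocyte values above 35 or missing were set to 35, the size of these folds follows the limit: that of B74 was -15.37 with the limit at 32 and -19.89 with the limit at 40.

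The rest of the run was lower or unevenly measured. B73 reached a Ct, 34.04, in hepatocyte replicate 3 only, against 23.96 to 25.1 in ESC (-11.36, SE 0.82). B71 had no Ct in any hepatocyte sample, against 25.7 to 28.1 in ESC (-9.49, SE 0.96). B76 read 33.7, 32.9 and no Ct in hepatocytes, against 17.9, 15.96 and 33.8 in D3 and 20.3, 31.3 and 29.02 in R1, so that it was uneven within ESC and the groups overlapped. Its fall of -10.28 (SE 3.41, adjusted p 0.0145) lost its call with values above 35 left missing (adjusted p 0.0841), in a fit on the 9 samples (0.0522) and against R1 alone (0.0768).

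B75 turned on a single hepatocyte value. It had no Ct in hepatocyte replicates 1 and 2 and a Ct of 7.98 in replicate 3, against 22.7 to 24.7 in ESC. The log2 fold change was -3.38 (SE 3.67, adjusted p 0.435), and -12.08 (adjusted p 6.39e-09) with the early value left out. Over the run, 7 of 21 hepatocyte values were below 35, against 42 of 42 ESC values. Over all 315 assays, the mean number below 35 per sample was 215.3 in hepatocytes and 259 in ESC. In the other cell types the counts of the run were 35 of 35 in iPSC, 4 of 21 in islets and 5 of 35 in fibroblasts. The run was thus near its limit in the available fibroblasts, which are tail-tip cells and not the feeder cells themselves. In these bulk samples, fewer cells carrying a miRNA and less of it per cell cannot be told apart.

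Outside the run, the falls included assays that other differentiated cells still expressed. B27 read 34.3, 34.7 and 34.4 in hepatocytes, against 25.8, 24.2 and 24.6 in D3 and 25.7, 25.4 and 24.03 in R1. Hepatocytes were within a cycle of each other and far above every ESC sample in Ct, and the log2 fold change was -10.65 (SE 0.75, adjusted p 1.66e-10). The mean Ct of B27 was 26.5 ± 1.49 in islets (SD, n = 3) and 26.4 ± 2.93 in fibroblasts (SD, n = 5). A07 had a similar profile, at 32.7, 33.9 and 33.2 in hepatocytes and 25.1 to 26.6 in ESC (-8.42, SE 1.15, adjusted p 2.98e-06), with 25.5 ± 1.16 in islets (SD, n = 3). B51 read 33.5, no Ct and 32.8 in hepatocytes and 24.7 to 27.7 in ESC (-8.73, SE 0.80). All 3 assays were thus at the edge of detection in hepatocytes and well within it in ESC.

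A88 and A24 were barely seen in hepatocytes. A88 gave a Ct of 36.4 in replicate 1 and none in the others, against 25.6, 25.1 and 24.8 in D3 and 25.6, 25.1 and 25.1 in R1, which span less than a cycle (-10.92, SE 0.62, adjusted p 1.37e-11). A24 gave 36.5 in replicate 1 alone, against 26.01 to 27.9 in ESC (-9.08, SE 0.63, adjusted p 1.46e-10). C64 was past 35 in every hepatocyte sample, at 37.2, 38.5 and 39.2, against 23.1, 22.5 and 22.2 in D3 and 27.99, 23.9 and 21.1 in R1. Its fall of -9.71 (SE 1.02, adjusted p 9.27e-08) was -11.78 with a reference over all plates. Every hepatocyte value of A88, A24 and C64 was set to 35. The spread of hepatocytes in these fits is thus that of the reference Ct, and the SE and adjusted p do not measure that of the assays.

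Among assays detected in all 9 samples, the falls with the smallest p were B35, B27 and A92. B35 read 30.1, 30.9 and 31.5 in hepatocytes, against 24.7, 23.6 and 24.4 in D3 and 25.3, 26.2 and 24.7 in R1, a log2 fold change of -7.16 (SE 0.47, adjusted p 7.11e-11). A92, an abundant assay in ESC, read 29.98, 28.3 and 27.3 in hepatocytes, against 22.2 to 24.1 in ESC (-6.56, SE 0.68, adjusted p 7.96e-08). Neither fold depends on the detection limit, because no value reached it.

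**Figure D4:**
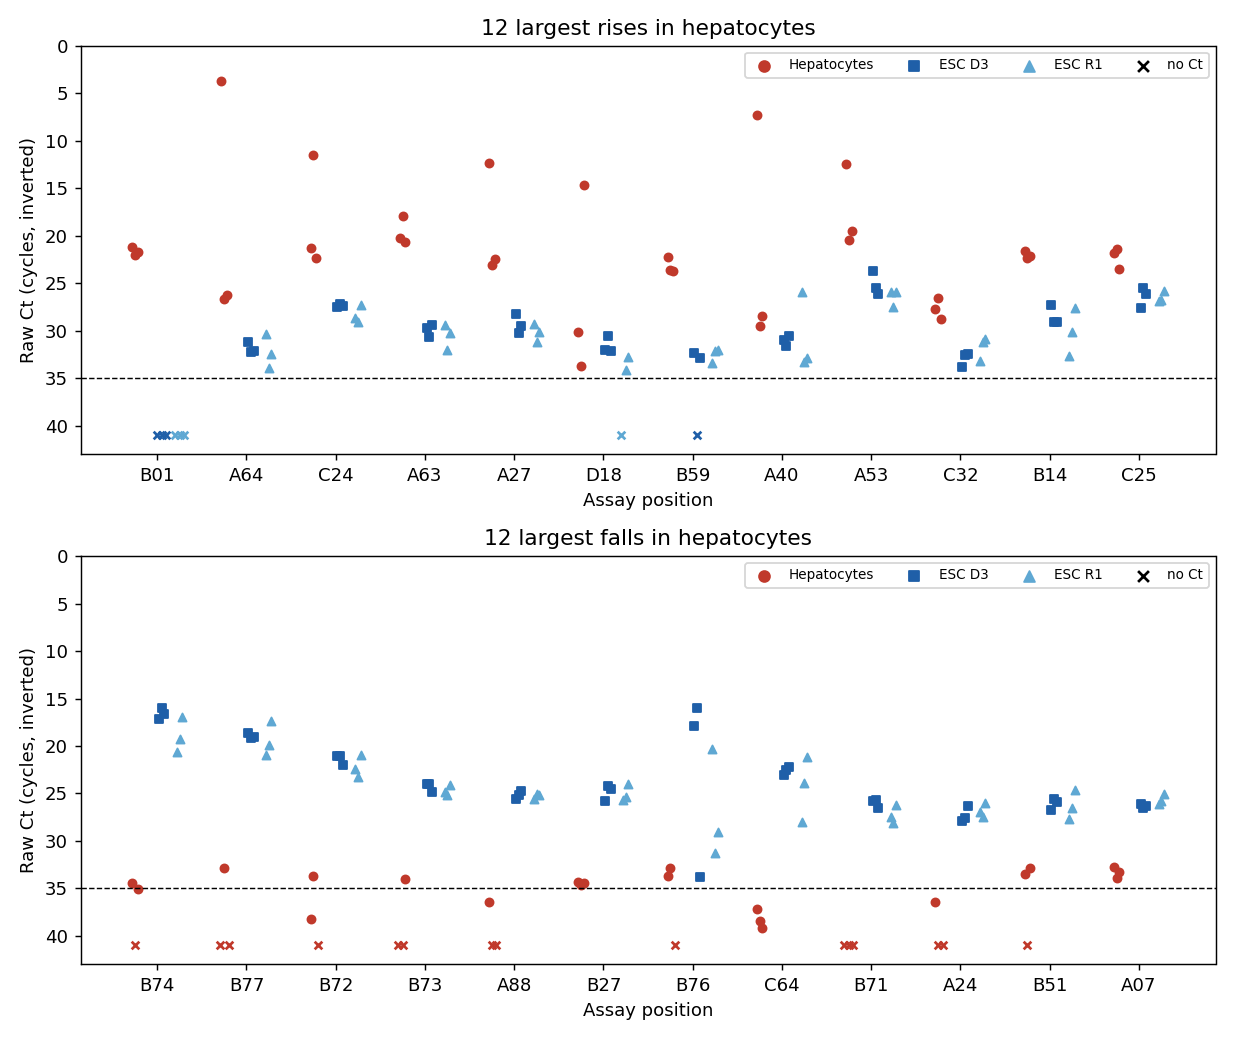
Raw Ct (cycles, axis inverted so that more RNA is higher) in each sample for the 12 largest rises and the 12 largest falls among assays called and detected in every sample of the higher group. Crosses mark samples without a Ct and the dashed line the limit of 35. B01 stands at 21.1 to 22.04 in hepatocytes with no Ct in ESC, and B74 is past 34 or missing in hepatocytes and at 15.95 to 20.6 in ESC.

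On raw Ct, detection in a single group was mostly a feature of ESC. Detection in no hepatocyte sample and in all 6 ESC samples was found for 27 of 315 assays (8.57%), and the reverse for 1 (0.317%). With the limit at 32 these counts were 43 and 3, with the limit at 40 they were 9 and 1, and without the early values they were 30 and 1. The 27 included A24, A60, A61, A88 and A89 on plate A, B25, B29, B34, B71, B78 and B79 on plate B, and 16 on plate C, with a mean ESC Ct of 23.5 to 32.98 and a median of 29.9. In hepatocytes 6 of the 27 gave no Ct at all. Detection does not correct for the reference Ct, which on plate C was 1.83 cycles higher in hepatocytes. Relative to the reference, 22 of the 27 were called lower. The 5 not called, C02, C33, C45, C60 and C84, were all on plate C. The log2 fold changes of the 27 ran from -10.92 for A88 to -0.19 for C60. The choice of these assays by detection in ESC and not in hepatocytes all but fixes that direction, and nothing further is read from it. Of the 27, 7 were below 35 in all 5 fibroblast samples and 6 in none of them.

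Of these 27 assays, A61 had the lowest mean Ct in fibroblasts, the cell type nearest to the feeder cells. A61 read no Ct, 39.3 and no Ct in hepatocytes, against 28.8, 27.5 and 25.9 in D3 and 28.6, 28.2 and 27.5 in R1, a log2 fold change of -8.38 (SE 0.63). In fibroblasts its mean Ct was 23.9 ± 2.86 (SD, n = 5), and the log2 fold change of ESC over fibroblasts was -2.57 (adjusted p 0.000411), in a comparison that called 138 of 276 assays (50%), or 150 without the early values. For A88 that value was 6.33, for A24 5.0 and for B27 2.64. The part of feeder RNA in the ESC levels was not tested.

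In the other direction, B01 was the 1 assay detected in all hepatocyte samples and in no ESC sample. It read 21.1, 22.04 and 21.7 in the 3 hepatocyte samples and gave no Ct in any of the 6 ESC samples. With the ESC samples set to 35 the fitted log2 fold change was 12.23 (SE 0.79, adjusted p 6.59e-11 by limma). Its size follows the limit, at 9.23 with the limit at 32 and 17.23 with the limit at 40. With all 6 ESC values set to the same Ct, their spread is that of the reference Ct alone. The SE and adjusted p therefore do not measure the spread of B01 in ESC. B01 was below 35 in 0 of 3 islet, 0 of 5 iPSC and 1 of 5 fibroblast samples, the last at 33.6.

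A63 and B59 came next among the rises free of isolated values. A63 read 20.3, 17.9 and 20.7 in hepatocytes, against 29.7, 30.7 and 29.4 in D3 and 29.4, 32.04 and 30.2 in R1. All hepatocyte samples lay more than 8 cycles below all ESC samples in Ct, and the log2 fold change was 9.48 (SE 0.74, adjusted p 7.78e-10). B59 read 22.2, 23.6 and 23.7 in hepatocytes, against 32.4, no Ct and 32.9 in D3 and 33.4, 32.1 and 32.1 in R1 (8.68, SE 0.76, adjusted p 6.47e-09). Hepatocytes spread over less than 2 cycles here while ESC were close to their limit.

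C32, B14 and C25 rose by smaller steps. C32 read 27.7, 26.5 and 28.7 in hepatocytes and 30.8 to 33.9 in ESC, a log2 fold change of 6.52 (SE 0.66, adjusted p 6.12e-08), or 4.45 with a reference over all plates. B14 read 21.6, 22.4 and 22.1 in hepatocytes and varied between 27.3 and 32.7 in ESC (6.15, SE 0.77, adjusted p 1.05e-06). Its mean Ct was 21.6 ± 0.814 in islets (SD, n = 3) and 21.6 ± 2.89 in fibroblasts (SD, n = 5), so that B14 was also abundant in the other differentiated cells. C25 read 21.8, 21.4 and 23.5 in hepatocytes and 25.5 to 27.6 in ESC (6.04, SE 1.5, adjusted p 0.00196), or 3.96 with a reference over all plates (adjusted p 0.0407).

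The other large rises rested in part on isolated values. C24 read 21.3, 11.5 and 22.3 in hepatocytes, against 27.2 to 29.1 in ESC, and its log2 fold change of 11.35 (adjusted p 3.14e-07) was 8.62 (adjusted p 6.76e-10) without the early value. A27 read 12.4, 23.1 and 22.5, against 28.3 to 31.2 in ESC, and moved to 6.23 from 9.32 when that value was left out. For A64 the fold of 12.04 became 4.85 (adjusted p 0.000141). These assays kept their direction and call, and the remaining hepatocyte samples also lay below every ESC sample in Ct.

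A40, D15 and C07 did not keep their calls. A40 read 7.28, 29.5 and 28.4 in hepatocytes, against 30.97, 31.6 and 30.5 in D3 and 25.9, 33.3 and 32.9 in R1. Its log2 fold change was 8.02 (adjusted p 0.0215), and 1.18 (adjusted p 0.461) without the early value. D15 moved to 2.35 (adjusted p 0.0890) from 12.65 (adjusted p 0.0191), and C07 to 1.70 (adjusted p 0.140) from 8.48 (adjusted p 0.0160). D18, at 30.2, 33.7 and 14.7 in hepatocytes and 30.6 to 34.2 in the 5 ESC samples with a Ct, moved to 2.09 (adjusted p 0.0186) from 9.0 (adjusted p 0.00366) and so kept its call, which it lost in a fit on the 9 samples (adjusted p 0.0648). A53 read 12.4, 20.5 and 19.5 in hepatocytes, against 23.7 to 27.5 in ESC. Its early value missed the rule at a gap of 7.09 cycles, as did that of A39 at 7.89, while the nearest inside it in hepatocytes was C24 at 9.86, and with a 5-cycle rule the fold of 7.18 became 5.08.

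Some falls were called only with isolated values left out. A34 had a log2 fold change of -1.09 (adjusted p 0.739), with 10.4, 32.6 and 32.8 in hepatocytes and 24.6 to 26.3 in ESC, and -8.13 (adjusted p 8.35e-10) without the early value. A09 stood at 1.45 (adjusted p 0.661) and at -5.36 (adjusted p 0.000225) without it. By limma, A84 moved to -2.38 (adjusted p 0.00489) from 3.25 (adjusted p 0.214), and B70 to -3.05 (adjusted p 0.00296) from 3.25 (adjusted p 0.312). A34, A09, A84, B70, D15, C07 and A75 lie outside the rule for named assays and were chosen after their values were seen. In all, 14 assays became higher calls and 8 became lower calls when the early values were left out, and 7 of each direction lost theirs. Most of these assays held no early hepatocyte value themselves. None of the new higher calls held one, and of the new lower calls A09, A34, A84, B70 and B75 did. Among the lost calls, 3 were of assays with an early hepatocyte value. The reference assays changed as well, and the cause of the other changes was not tested.

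C94, an abundant assay in both cell types, turned on the plate C reference. It read 20.9, 21.3 and 22.3 in hepatocytes, against 23.3, 22.8 and 22.2 in D3 and 24.1, 23.5 and 21.5 in R1, so that the raw values overlapped. Relative to the plate C reference the log2 fold change was 3.22 (SE 0.51, adjusted p 1.87e-05). With a reference over all plates it was 1.14 (adjusted p 0.173), on raw Ct 1.38 (adjusted p 0.280), and with quantile normalization -0.18. Among the settings run, the call of C94 was lost under these 3.

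For some assays the data bound the difference. Of the 116 tested assays that were not called, 13 had a 95% interval of the log2 fold change within 2 on either side of zero, a 4-fold difference, and 0 had it within 1. The median half-width of the interval over all tested assays was 1.83. B05 read 24.5, 26.02 and 25.4 in hepatocytes, against 25.3 to 28.03 in ESC, with a log2 fold change of -0.032 and a 95% interval of -1.07 to 1.01. C59 read 26.2, 26.2 and 26.9 in hepatocytes and 23.8 to 25.3 in ESC, with -0.07 and an interval of -1.16 to 1.02. With a reference over all plates C59 was lower in hepatocytes, at -2.15 (adjusted p 0.0130). C76 had an interval of -1.92 to 1.89, but was called higher with quantile normalization (2.82, adjusted p 0.00847). C39 had one of -2.0 to 1.62, but was called higher without hepatocyte replicate 1 (1.71, adjusted p 0.0130). For A05, at 0.092, the interval of -5.10 to 5.28 leaves large differences possible in either direction, and likewise for D24, at -2.63 to 2.84.

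The same hepatocyte samples were set against the other cell types in the same fit, which places the assays above. Against islets, 106 of 276 assays passed (38.4%), with 30 higher (10.9%) and 76 lower (27.5%). Against fibroblasts, 131 of 262 passed (50%), with 58 higher (22.1%) and 73 lower (27.9%), and against iPSC, 158 of 273 passed (57.9%), with 62 higher (22.7%) and 96 lower (35.2%). Without the early values the calls were 111 against islets, 121 against fibroblasts and 156 against iPSC. These comparisons share the hepatocyte samples with the comparison with ESC, so their values are given side by side and not as independent evidence. A63 stood at 9.48 over ESC, 7.85 over islets, 9.15 over fibroblasts and 8.36 over iPSC. B59 stood at 8.68, 6.45, 9.27 and 7.36 in the same order. For B01, which was at the limit in nearly all samples of the other cell types, the fitted folds are set by the limit and by each group's reference Ct and are not compared. All 3 assays were called higher in hepatocytes in each of these comparisons.

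Other assays that rose against ESC did not pass against every cell type, which does not show equal levels. B14 differed by 0.41 from islets (adjusted p 0.765) and by -0.27 from fibroblasts (adjusted p 0.809), and C25 by 0.53 from islets (adjusted p 0.856), all short of the threshold. Among the falls, B27 stood at -10.65 against ESC, -7.18 against islets, -8.01 against fibroblasts and -10.91 against iPSC. A88 stood at -10.92, -2.42, -4.59 and -9.57, and A07 at -8.42, -6.95, -6.21 and -8.73, all called lower in hepatocytes. For A88, past the limit in every hepatocyte sample, the sizes follow the limit. B74 fell by a like amount against iPSC, at -18.24, and was not tested against islets or fibroblasts because too few of their samples reached 35.

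**Figure D5:**
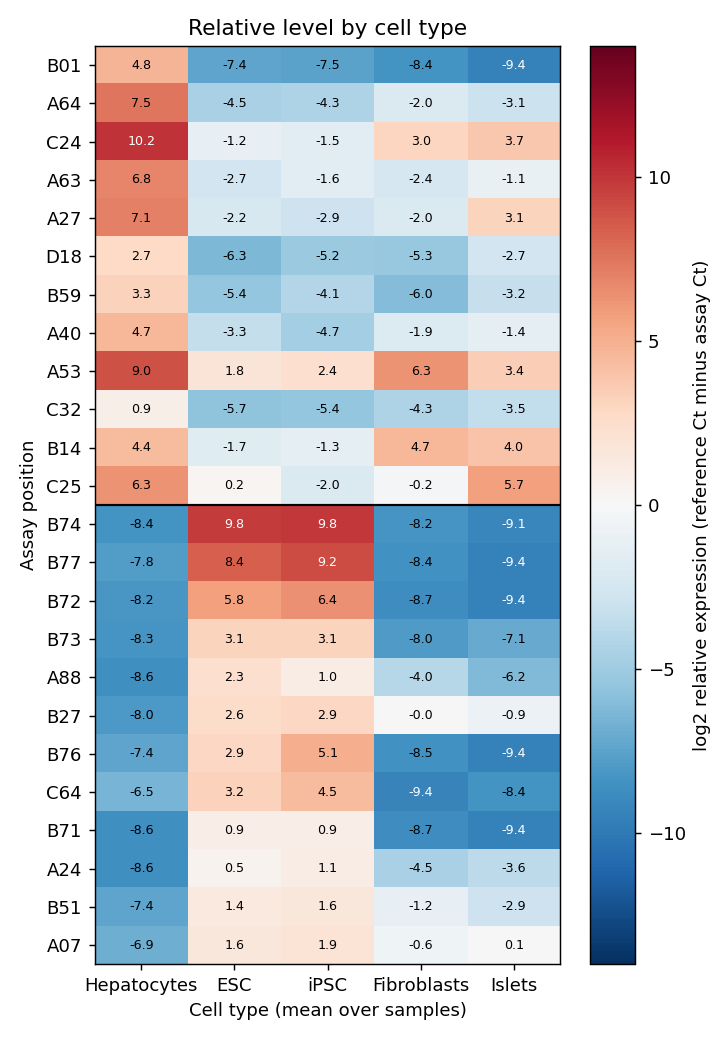
Mean log2 relative expression (reference Ct minus assay Ct) per cell type for the 12 largest rises (above the line) and the 12 largest falls (below it) of hepatocytes over ESC. B01 is at 4.79 in hepatocytes and between -9.41 and -7.44 elsewhere, where samples without a Ct were set to 35, whereas B74 is at -8.39 in hepatocytes, 9.79 in ESC and 9.85 in iPSC.

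The ESC lines were averaged, and a direct comparison found no call between them. Between D3 and R1, 0 of 273 assays were called by limma (0%), 3 had an unadjusted p under 0.05, and the median absolute log2 difference was 0.55. This does not show that the lines are alike, since the 95% interval lay within 4-fold for 48 of the 273 assays. Set against D3 alone, hepatocytes had 52 higher and 95 lower calls in 274 tested assays (53.6% in all). Against R1 alone they had 53 higher and 89 lower calls in 278 (51.1%).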

How the data were processed

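The authors deposited raw threshold cycles (Ct, a score in PCR cycles) for 315 positions on 4 plates in 26 samples. Per the labels' protocols, the panel covered 303 miRNAs, a reaction used 5 ng of total RNA, and RNU6 was the reference for Ct. No row is named RNU6, and the deposited fold-change table, which holds no ESC comparison, was not used. No source used here names the software or its threshold. Of 2835 values in the 9 samples, 12.5% have no Ct (17.7% in hepatocytes, 9.95% in ESC) and 30 are exactly 36, whether measured or filled in is unknown. No technical replicates were used, so the precision of a single Ct is unknown.

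Log2 relative expression was the mean Ct of the reference assays of a plate set minus the assay Ct, with values above 35 or missing set to 35. Where all samples of a group were set to 35, their spread is that of the reference Ct alone. The SE and adjusted p of such an assay do not measure its own spread in that group. Tests were limited to assays below 35 in 50% or more of the samples of either group. Means were fitted by lmFit and eBayes of limma 3.58.1 (R 4.3.3) over all groups (24 columns, treated duplicates of a clone averaged), and the contrast was hepatocytes minus the mean of D3 and R1, with Benjamini-Hochberg adjustment at 0.05. Single values per sample were tested by two-sided exact permutation. Plots used Python 3.11.15 with pandas 2.3.3, numpy 2.4.6 and matplotlib 3.10.9.

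Assays were named by a rule: among those called and below 35 in every sample of the higher group, the 12 largest rises and falls. Also named were the assays detected in a single group, the 3 smallest adjusted p per direction among assays below 35 in all 9 samples, B01, C94, C24 and B71 to B77, and 6 uncalled assays with the smallest differences. The groups, the rule and the lists were chosen with earlier results of these data known. Lists of marker miRNAs could not be applied, because rows carry positions. Same-numbered samples correlated in their deviations from the group means with r between -0.155 and 0.209, and replicate numbers were therefore not treated as pairs. In 10 simulated runs on 279 assays, 60 of them changed, the fit recovered 74.3% of 16-fold and 29.7% of 4-fold changes and called 0.320% of unchanged assays. The simulated noise was normal and independent between assays, with no detection limit, missing Ct, reference or error shared by a sample. These shares may therefore not hold for the measured data. Alternatives covered the reference, the limit, the filter, the fit, each sample left out and the isolated values.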

Additional observations from a re-analysis of the deposited data

Results flagged for a closer look

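Of 61 measures examined in the 6 ESC samples, 7 had a sample farther from the rest than Dixon's 95% value for 6 samples allows, and chance flags about 1 in 20. R1 replicate 1 accounted for 4 of them. Its log2 relative expression was 2.07 at A40, where the nearest other ESC sample was at -3.51, and -0.42 at C64, where the nearest was at 3.51. It was 0.17 at C49, with the nearest at -1.70, and -2.65 at C74, with the nearest at -4.67. D3 replicate 2 stood apart at B35, with 3.90 against a nearest value of 2.77, and at C39, with -0.16 against 0.91. D3 replicate 1 stood apart at B34, with -5.04 against -3.64. R1 replicate 1 also held all 3 isolated early values of ESC. The 3 hepatocyte samples were not put through this test, and their isolated early values are given above.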

How the results depend on the processing

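Over all plates, more assays were called lower than higher in hepatocytes under every setting run. This did not hold on each plate. Plate D had 8 higher and 2 lower calls in the main fit, and plate A had 24 and 22 with a reference over all plates. Calls ranged from 130 on raw Ct (49 higher, 81 lower) to 171 without the isolated early values, apart from 91 (42 higher, 49 lower) when a Ct below 35 was required in all 9 samples, which left fewer assays. Leaving out each sample gave 140 to 159 calls, 51 to 58 higher and 89 to 102 lower. With quantile normalization 68 were higher and 77 lower, and with the median Ct as reference 76 and 89. The panel's median fold change, -0.83 on the log2 scale, was 0.028 with quantile normalization, -0.26 with values above 35 left missing, -0.051 for assays below 35 in all 9 samples, and -1.01 to -0.45 without each sample. The cause of these shifts was not tested. The replicate block in a fit on the 9 samples gave 158 calls (58 higher, 100 lower), against 161 without the block. In that fit A40 had an adjusted p of 0.0801 and D18 of 0.0592 with the block, and 0.135 and 0.0648 without it, so both calls were already lost.

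With the limit at 32, 3 assays were detected in hepatocytes alone and 43 in ESC alone, and with the limit at 40 the ESC count was 9. Without each sample these counts were 1 to 2 and 27 to 34. The reference Ct difference of plates A and B was -0.80 (exact permutation p = 0.0595) without the isolated values and -1.37 to -0.69 without each sample, the smallest without hepatocyte replicate 1. That of plate C was 1.48 to 2.22, the lowest without hepatocyte replicate 3 (exact permutation p = 0.107), and that of plate D 1.99 to 3.01. The difference in detected assays was -47.3 to -41.0.

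Among the 57 assays named by the rule, with a call on at least 1 side, the sign turned for C76 (2.82) and C94 (-0.18) with quantile normalization. It also did so for C30 (0.41), C62 (0.17) and C74 (1.07) with the limit at 32. B75 turned (15.08, resting on a single hepatocyte value) with values above 35 left missing. C39 turned (1.71) without hepatocyte replicate 1, its range over the samples left out being -1.25 to 1.71. With no call on either side, the sign turned among the 57 for C02 (1.45), C45 (0.81) and C84 (0.95) with the limit at 32. It did so too for B75 without hepatocyte replicates 1 (1.60) and 2 (0.99), and in 51 values of 7 assays whose log2 fold change was within 0.2 of zero. Outside the rule, A09 (-5.36), A84 (-2.38) and B70 (-3.05) turned to lower calls with the isolated values left out. For such assays the other settings were not listed. Between D3 and R1 each sample left out gave 0 calls by limma. Against islets there were 85 to 107 calls when each sample was left out, against fibroblasts 101 to 141, against iPSC 139 to 152, and for ESC against fibroblasts 123 to 154. With 3 hepatocyte samples a single early or missing Ct can carry a fold, as for B75, and where 1 group is past the limit the size of a fold follows the limit.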
